A study of Mus musculus with 14 samples.

Results

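Quiescent hepatic stellate cells taken straight from uninjured mouse livers were compared with whole uninjured liver. The comparison covers 12643 of the 35171 gene rows with gene symbols, namely those with a mean of at least 1 TPM (a measure of abundance per transcript length, scaled so that every library has the same sum) over 7 bulk RNA-seq libraries. The stellate group has 4 libraries of unplated cells and the liver group has 3 libraries of tissue, out of 14 samples in the series. Both groups carry the same strain label, LratCre+, TdTom+ in C57BL/6J, and no liver damage or treatment. The Cre recombinase is driven by Lrat, so the red TdTom label marks cells that have used that gene. Per the labels' protocols, livers were perfused and digested, and stellate cells were enriched on a gradient and sorted for vitamin A and TdTom, so cells without either were selected against and Lrat itself is no finding. Nothing in the labels says that a group's libraries are from different mice, so the p-values rest on the spread among the libraries at hand, and that spread may be technical. The groups stand in separate deposited tables, and table and group cannot be told apart. In bulk samples, fewer cells of a type and less RNA per cell cannot be told apart either.

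Stellate cells lie between the sinusoidal endothelium and the hepatocytes, wrap the sinusoid as its pericytes, and store most of the vitamin A of the body as retinyl esters in lipid droplets. In the uninjured liver they are regarded as quiescent, with slow division and little fibrillar collagen, and they turn into matrix-producing myofibroblasts after injury. Hepatocytes supply most of the RNA of whole liver and make the plasma proteins, bile acids, urea and glucose.

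The make-up of the libraries set the scale of the comparison. Transcripts of the mitochondrial genome took 4.91, 5.03, 5.67 and 4.87% of TPM in the stellate libraries and 19.05, 18.5 and 22.4% in the liver libraries. The Mup genes, which encode urinary pheromone carriers made by hepatocytes, took 32.8, 18.6 and 15.4% of TPM in liver and at most 0.00432% in stellate cells, and single Mup copies cannot be told apart with certainty. Liver 1 held the most Mup transcripts and the least of the 18 stellate markers. The groups did not overlap for either class. The two-sided exact permutation p was formed by doubling the smaller tail. In that form 7 libraries in groups of 4 and 3 allow at least 0.0571, which each class reached.

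**Figure D1:**
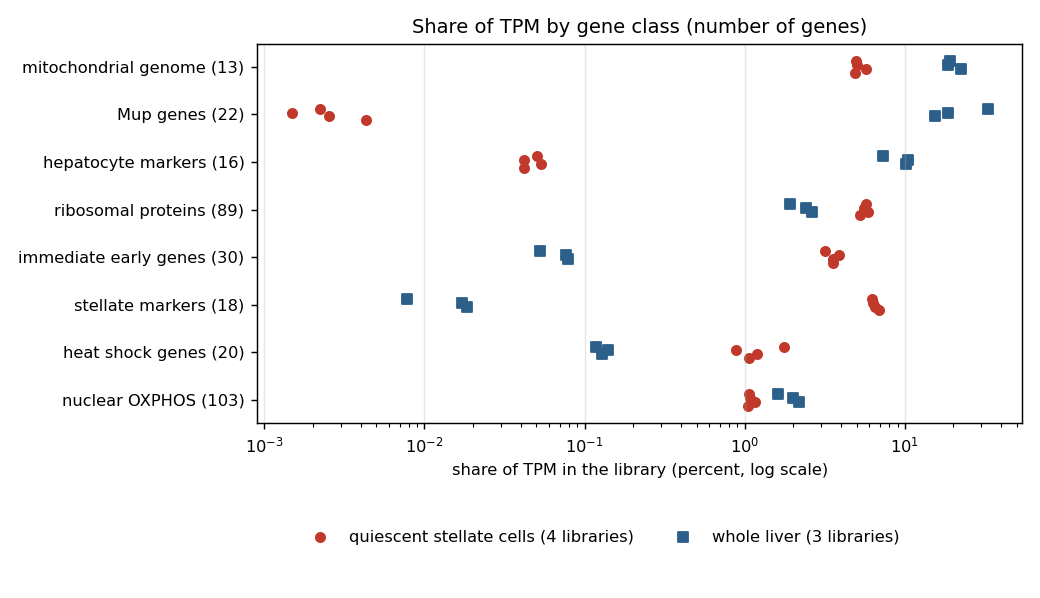
Share of library TPM (percent, log axis) taken by 8 gene classes, with 1 point per library, 4 stellate (circles) and 3 liver (squares). The groups are apart for each class, with mitochondrial, Mup, hepatocyte and nuclear OXPHOS transcripts higher in liver and the other 4 classes higher in stellate cells.

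Because a few hepatocyte transcripts fill so much of the liver libraries, TPM was tested as deposited and after rescaling each library by its median ratio to a common reference. A gene was called where limma's Benjamini-Hochberg adjusted p was under 0.05 and the absolute log2 fold change was at least 1, on log2(TPM + 1), a scale that understates the change of low genes. On TPM as deposited, 67.0% of the tested genes were called higher in stellate cells and 10.9% lower, with a median log2 fold change of 1.62. After rescaling the shares were 25.7% and 27.4%, with a median of −0.03. Each of the 3250 genes called higher after rescaling was also called higher on TPM, and each of the 1381 called lower on TPM was also called lower after rescaling. The calls on both scales are therefore 25.7% higher and 10.9% lower, the shares beside which each list count below is to be read. Below, "rose" and "fell" mean called on both scales, log2 fold changes are those after rescaling unless TPM is named, and levels are TPM as deposited, in mean ± SD or per library in the order 1 to 4 for stellate cells and 1 to 3 for liver.

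Transcription factor genes of mesenchyme were among the clearest differences. Of 24 tested members of a list of mesenchymal and stellate factors (5 more were under the minimum), 23 rose and 1 fell, against the 25.7% and 10.9% of all genes. Tcf21, a bHLH factor of visceral fibroblasts, stood at 512, 686, 613 and 459 TPM in stellate cells and 1.02, 2.65 and 1.36 TPM in liver (log2 fold change 6.11, SE 0.21, limma adjusted p = 6.60e-09). Hand2, another bHLH factor, stood at 465, 315, 397 and 588 and 1.04, 1.93 and 2.09 TPM (log2 5.68, 19.6% exon overlap, meaning the share of exon bases that another gene of the annotation also covers). Lhx2, a LIM homeobox factor whose loss in mice is known to activate stellate cells, stood at 259, 253, 283 and 263 and 0.375, 0.749 and 1.3 TPM (log2 5.79). For these 3 genes every stellate library lay far above the highest liver library, and the stellate libraries differed among themselves by less than 2-fold.

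Foxf1, a forkhead factor of gut and liver mesenchyme, was 288 ± 20.3 against 0.624 ± 0.188 TPM, Zeb2, a zinc finger repressor of the epithelial state, 275 ± 52.6 against 0.525 ± 0.173 TPM, and Ets1, an ETS factor, 272 ± 37.4 against 1.49 ± 0.569 TPM (n = 4 and 3). The factors Gata4, 158 against 4.93 TPM, and Nr2f2 (COUP-TFII), 206 against 11.1 TPM, rose by 2.87 and 2.20. Tbx3, a T-box repressor that hepatocyte precursors use, was the member that fell, and it also stands on the hepatocyte list below. It was at 1.18, 0.678, 1.46 and 0.888 TPM in stellate cells and 3.87, 7.4 and 5.1 TPM in liver (log2 −3.02).

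The factors of hepatocyte identity lay on the other side. Of 21 tested members of that list, 17 fell and none rose on both scales, beside 10.9% and 25.7% of all genes. Hnf4a, the nuclear receptor central to hepatocyte identity, stood at 0.111, 0.126, 0.0278 and 0.0253 TPM in stellate cells and 88.2, 103 and 114 TPM in liver (log2 −7.77, SE 0.08, limma adjusted p = 3.61e-12). Mlxipl (ChREBP), a sugar-sensing factor, was 0.23 TPM in stellate cells and 197 TPM in liver. The forkhead genes Foxa2 and Foxa3 and the xenobiotic receptor Nr1i2 were listed at 0 in all 4 stellate libraries and at 16.6, 21.2 and 27.4 TPM in liver. Creb3l3, a factor of lipid metabolism, and Cebpa, a factor of hepatocyte maturation, fell but were not near 0, with 12.7 against 106 TPM of Creb3l3 and 9.93, 14.5, 12.6 and 12.2 TPM of Cebpa in stellate cells and 97.7, 138 and 124 TPM in liver.

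A pair of nuclear receptors best known from hepatocytes went the other way on TPM. Nr1h4, the bile acid receptor FXR, stood at 385, 396, 362 and 322 TPM in stellate cells and 45.3, 66.01 and 58.2 TPM in liver. Rxra, the retinoid X receptor alpha that partners with many nuclear receptors, stood at 274, 265, 205 and 255 and 40.8, 53.3 and 48.4 TPM. No stellate library of either gene overlapped a liver library on TPM, but after rescaling the log2 fold changes were 0.68 and 0.37, under the minimum of 1.

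**Figure D2:**
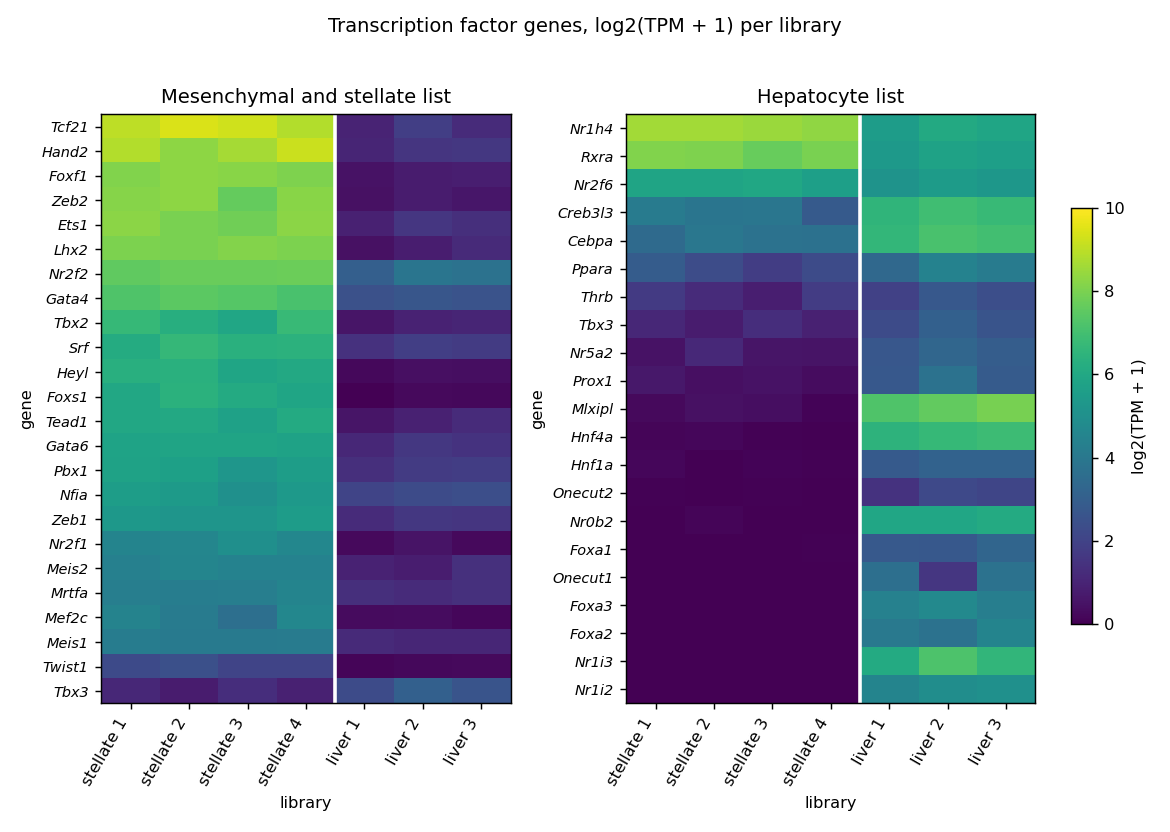
Level of each tested transcription factor gene as log2(TPM + 1) in colour, genes in rows and the 7 libraries in columns, with a white line between stellate cells and liver. The mesenchymal list is bright on the stellate side except for Tbx3, and the hepatocyte list is bright on the liver side except for Nr1h4, Rxra and Nr2f6 (54.4% exon overlap).

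Receptors and channels of vascular tone formed a further group. Of 28 tested receptors for vasoactive and related signals (11 more were under the minimum), 19 rose and 3 fell, beside 25.7% and 10.9% of all genes. Vipr1, a receptor for vasoactive intestinal peptide, stood at 1799, 1572, 1312 and 1901 TPM in stellate cells and 1.87, 5.25 and 4.65 TPM in liver (log2 6.63, SE 0.23, limma adjusted p = 5.74e-09). Agtr1a, the angiotensin II receptor, stood at 1062, 850.4, 938 and 1168 and 16.9, 25.4 and 25.7 TPM (log2 3.44). Pth1r, the parathyroid hormone receptor, stood at 976, 973, 860.4 and 867 and 1.45, 3.14 and 2.9 TPM (log2 6.33). Agtr1a had the highest level of the 3 in liver and the smallest difference. None of the 3 genes overlapped between groups, on a scale where 67.0% of all tested genes were called higher and 10.9% lower.

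Both endothelin receptors rose, Ednrb at 547 ± 34.4 against 1.06 ± 0.442 TPM and Ednra at 322 ± 21.4 against 0.483 ± 0.195 TPM, as did Calcrl, the receptor subunit for CGRP and adrenomedullin, at 481 ± 71.8 against 1.47 ± 0.787 TPM. Avpr1a, the vasopressin receptor, was listed at 0 in the stellate libraries and stood at 6.38, 7.57 and 8.67 TPM in liver, and the glucagon receptor Gcgr fell from 134 to 62.7 TPM. Gcgr stood at 51.7 to 76.97 TPM in the stellate libraries, and the part of other cells in these values was not tested.

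The subunits of a pericyte potassium channel and of the nitric oxide receptor were high in the same libraries. Abcc9 and Kcnj8, which encode the sulfonylurea subunit and the pore of one ATP-sensitive potassium channel and neighbour each other on chromosome 6, stood at 1138 against 1.32 and 309 against 0.671 TPM. Gucy1a1 and Gucy1b1, the subunits of soluble guanylate cyclase and neighbours on chromosome 3, stood at 393, 356, 337 and 395 and 459, 469, 426 and 475 TPM in stellate cells. In liver they stood at 0.384, 0.898 and 0.863 and 0.322, 1.08 and 0.667 TPM, so the subunits were at similar levels within each group. Of 22 tested genes of this list, 16 rose and 1 fell, beside 25.7% and 10.9% of all genes. The fall was that of the cation channel gene Trpc6 (0.119 against 3.74 TPM).

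The most abundant nuclear transcripts of the stellate libraries were matrix genes. Dcn, the small proteoglycan decorin, stood at 20489, 22331, 24271 and 23222 TPM in stellate cells and 20.2, 45.2 and 46.95 TPM in liver, Ecm1, a secreted glycoprotein, at 22269, 21229, 22178 and 23396 and 38, 76.5 and 93.6 TPM, and Bgn, biglycan, at 9339 against 17.2 TPM. Dcn and Ecm1 were close to each other and varied by less than 1.5-fold among the stellate libraries. The liver side varied by more, with liver 1 lowest for both. Prelp, another small proteoglycan, and Tgfbi, a matrix protein that binds integrins, were among the 10 largest rises that the naming rule took, at 3627 against 3.58 and 4425 against 5.47 TPM (log2 7.86 and 7.61). Apoa2, an apolipoprotein of HDL, and Fabp1 had the largest falls of a ranking that left out Mup and mitochondrial genes (log2 −14.00 and −13.91).

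Basement membrane genes were abundant in the quiescent cells. Of 16 tested members, 14 rose and 1 fell, beside 25.7% and 10.9% of all genes. Col4a1, a chain of the network-forming collagen IV, stood at 1456, 1444, 1325 and 1416 TPM in stellate cells and 3.96, 4.58 and 3.16 TPM in liver (log2 6.33, SE 0.13, limma adjusted p = 1.62e-10). The nidogen gene Nid1 was 540.0 ± 81.2 against 0.993 ± 0.5 TPM, and the laminin chains Lamb1 and Lamc1 were 539 ± 74.3 against 1.04 ± 0.198 TPM and 366 ± 27.2 against 2.63 ± 0.587 TPM. Sparc, a matrix glycoprotein that binds collagen, was 3534 ± 224 against 11.3 ± 3.75 TPM. The exception was Col18a1, whose product is the source of endostatin, at 2.62, 4.79, 5.34 and 6.36 TPM in stellate cells and 100.4, 151 and 140.0 TPM in liver (log2 −6.34), so the groups were as cleanly apart as for Col4a1 but in the opposite order.

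The machinery that makes and trims collagen was also high. Of 19 tested genes of collagen processing, 17 rose on both scales and none fell on both, beside 25.7% and 10.9% of all genes. Serpinh1, the collagen chaperone HSP47, was 1185 ± 60.4 against 2.91 ± 0.948 TPM, Pcolce, an enhancer of procollagen cleavage, 764 ± 48.4 against 3.8 ± 0.906 TPM, and the crosslinking enzyme gene Loxl2 167 ± 23.4 against 0.374 ± 0.06 TPM. P4hb, protein disulfide isomerase and a subunit of prolyl hydroxylase, did not differ on TPM by the minimum (648 against 472 TPM) and was called lower after rescaling (log2 0.46 on TPM and −1.56 rescaled). Of 24 proteases and inhibitors 17 rose and 4 fell, beside the same shares of all genes. Mmp2, a gelatinase, stood at 239.6, 219, 211 and 215 TPM in stellate cells and 0.554, 0.77 and 0.486 TPM in liver. The plasma inhibitors of hepatocytes fell, with Serpina1a at 1.64 against 3712 TPM and Pzp at 0.972 against 1717 TPM.

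Stellate cells were rich in transcripts of secreted signals. Of 42 tested paracrine ligands and binding proteins (18 more were under the minimum), 26 rose and 9 fell, beside 25.7% and 10.9% of all genes. Gdf2, which encodes BMP9, stood at 1841, 1570.0, 1464 and 1979 TPM in stellate cells and 1.05, 2.63 and 2.27 TPM in liver (log2 7.51, SE 0.18, limma adjusted p = 5.50e-10), and Bmp10, the other ligand of the same endothelial receptor, at 472 against 0.304 TPM. Gdf10, which lies next to Gdf2 on chromosome 14, was at 419.6 against 0.421 TPM. Cxcl12, a chemokine, was 6329 ± 557 against 71.4 ± 21.5 TPM, Igfbp7 7782 ± 818 against 38.2 ± 13.6 TPM and Angptl6 1804 ± 104 against 5.61 ± 2.29 TPM (16.8% exon overlap). Among secreted factors that fell were Hamp (hepcidin, 0.193 against 1287 TPM), Igf1 (3.01 against 414 TPM) and Vegfa (17.8 against 114 TPM). Vegfa differed least of these 3 and was still 12.5 to 20.1 TPM in the stellate libraries.

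Pairs of ligand and receptor were then read side by side, without a test of the pair. Of 51 distinct ligands in 56 pairs, 24 rose, 7 fell, 5 depended on the scale or were not called, and 15 were under the minimum. Of 50 distinct receptors, 27 rose, 4 fell, 9 depended on the scale or were not called, and 10 were under the minimum. Among all tested genes 25.7% rose and 10.9% fell. In 11 pairs both members rose, in 5 the ligand fell and the receptor rose, and in 2 the ligand rose and the receptor fell.

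Several pairs had 1 member on each side of the comparison. Agt (angiotensinogen) stood at 189, 268 and 264 TPM in liver and 0.239 TPM in stellate cells, while its receptor gene Agtr1a had the opposite order given above. F2 (prothrombin) stood at 0.289 against 626 TPM, and F2r, the thrombin receptor, at 229 against 8.28 TPM. Igf1 fell, while Igf1r, its receptor, stood at 15.8, 16.2, 12.2 and 14.7 TPM in stellate cells and 0.0972, 0.175 and 0.22 TPM in liver. The reverse held for Hgf, the hepatocyte growth factor, and Met, its receptor. Hgf was at 1296, 1226, 866 and 1286 TPM in stellate cells and 0.336, 0.921 and 0.45 TPM in liver. Met was at 0.181, 0.0132, 0 and 0.0236 TPM in stellate cells and 4.48, 7.35 and 5.88 TPM in liver, so neither gene overlapped between groups. Hbegf, an EGF family ligand, rose to 13.2 TPM while Egfr fell from 87.3 to 22.4 TPM.

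For other receptors the ligand gene was low in both groups. Vip and Calca, ligands of Vipr1 and Calcrl, had means of at most 0.0219 TPM in either group, and Edn1, the endothelin gene, was at 0.307 and 0.23 TPM. Pdgfrb, the PDGF receptor beta, was 309 against 0.729 TPM with its ligand gene Pdgfb at 0.206 and 0.365 TPM. Fgfr2 stood at 1419, 1729, 1674 and 1429 TPM in stellate cells and 8.07, 14.4 and 16.5 TPM in liver, and Fgf7, a ligand of one of its isoforms, at 0.17 and 0.00813 TPM. Both ligands of the macrophage receptor Csf1r rose, Csf1 at 232 against 1.44 TPM and Il34 at 297 against 0.926 TPM, while Csf1r itself was 9.71 against 2.42 TPM, higher on TPM (log2 1.64) and not called after rescaling, with 15.1% exon overlap.

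Genes named for their part in the nervous system rose as well. Of 26 tested members, 20 rose and 1 fell, beside 25.7% and 10.9% of all genes, while 15 more members were under the minimum. Ntn1, the axon guidance cue netrin-1, was 532 ± 47.6 against 0.628 ± 0.237 TPM, and Sema6d, a semaphorin, 324 ± 54.2 against 1.18 ± 0.41 TPM. Ngfr, a neurotrophin receptor, stood at 315, 352, 261 and 334 TPM in stellate cells and 0.194, 0.371 and 0.465 TPM in liver. Reln, reelin, rose by 7.53, while the genes for its receptors Lrp8 and Vldlr stood at 0.101 and 0.084 TPM in stellate cells. Gfap, the astrocyte filament long used as a stellate cell marker, was 18.8, 17.2, 14.9 and 17.1 TPM in stellate cells and 0.266, 0.0343 and 0.101 TPM in liver, below Ngfr in each stellate library. The gene that fell was Gfra1, a coreceptor for GDNF (5.91 against 16.7 TPM), and leaving out any 1 stellate library gave 2 genes called lower on TPM. The 8 markers of Schwann cells and neurons summed to 17.3, 4.25, 6.16 and 0.792 TPM in the stellate libraries and 0.848 to 1.29 TPM in liver, highest in stellate library 1 and lowest in library 4, and their part in the values above was not tested.

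Signalling genes showed the same balance. All list counts of this paragraph stand beside the 25.7% and 10.9% of all genes that rose and fell. Of 19 tested Notch and Hedgehog genes 17 rose and none fell on both scales, among them the Notch target Hes1 (479 ± 53.9 against 13.1 ± 4.78 TPM) and the Hedgehog inhibitor Hhip (144 ± 17.5 against 0.311 ± 0.272 TPM). Of 16 genes of BMP signalling and feedback 11 rose and 3 fell. Without liver library 3 the number called lower on TPM dropped from 3 to 1. The coreceptor Eng rose to 1157 ± 58.99 against 7.97 ± 3.21 TPM, and Bambi, a decoy receptor, to 67.8 ± 6.18 against 0.386 ± 0.117 TPM. Acvrl1, the receptor that BMP9 and BMP10 use on endothelium, was 2.03, 2.9, 1.49 and 1.34 TPM in stellate cells and 0.093, 1.13 and 0.378 TPM in liver, groups that did not overlap, but it was not called on TPM (log2 0.97) or after rescaling (log2 0.07, SE 0.31), and was −0.06 after quantile normalisation. Hjv, the BMP coreceptor of the hepatocyte iron response, fell from 41.3 to 0.0635 TPM. Adhesion genes divided between mesenchymal and epithelial members. Of 26 tested, 18 rose and 5 fell. The integrin chains Itgb1 (897 ± 55.7 against 27.9 ± 5.09 TPM) and Itga9 (275 ± 60.2 against 0.639 ± 0.331 TPM) rose. The tight junction genes Cldn1 and Ocln stood at 13.8, 19.4 and 18.02 and 3.83, 6.8 and 6.01 TPM in liver and at means of 0.017 and 0.0211 TPM in stellate cells. Of 16 tested imprinted genes 11 rose and none fell, for example Sgce (177 against 1.47 TPM) and Grb10 (38.9 against 0.682 TPM).

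A ratio of a pair of genes within a library does not depend on how libraries are scaled. Pairs of isozymes or of related genes, called isozyme pairs here, were therefore compared as the share of the pair's summed TPM. Of 28 pairs of a form listed as the liver type and another form, 27 had a share in every library. That listing did not always match the levels. Itga1, listed as a liver type, was at 211 TPM in stellate cells and 1.4 TPM in liver. Myl12a, also listed so, was at 852 TPM in stellate cells and 37.9 TPM in liver (19.9% exon overlap). In 26 of these 27 pairs the share of the other form was higher in each stellate library than in any liver library, and in 18 the main form switched. The pairs were built around a liver-type form and the sort selected against hepatocytes. The direction was thus largely set by the choice of pairs, and the share for other pairs of genes was not computed. The exact permutation p (two-sided, with the smaller tail doubled) was 0.0571 for each of the 26, the smallest that 35 arrangements then allow. After Benjamini-Hochberg adjustment over the 27 pairs it was 0.0593. A p-value formed by doubling the smaller tail therefore cannot put any pair under 0.05 here.

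Sugar metabolism showed the switch at several steps. Aldoa, the muscle-type aldolase, held 99.8% ± 0.0918 of the aldolase A and B pair in stellate cells and 3.36% ± 0.196 in liver. The general pyruvate kinase Pkm held 99.997% ± 0.00575 and 8.27% ± 4.28 of its pair with Pklr (15.3% and 21.97% exon overlap). The shares were close to total in stellate cells, and small but not absent in liver.

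Glycogen enzymes were of the same kind. Gys1, the muscle-type glycogen synthase, held 99.7% of its pair with Gys2 in stellate cells and 0.562% in liver. Pygb, the brain-type phosphorylase, held 87.7, 85.7, 88.1 and 88.9% of its pair with the liver form Pygl, and 0.449, 0.534 and 0.504% in liver. The third phosphorylase gene, the muscle form Pygm, was above both in stellate cells, at 98.7, 86.1, 88.9 and 83.2 TPM against 0.141, 0.283 and 0.227 TPM in liver (log2 5.08), while Pygb was 28.5 and Pygl 4.02 TPM. The glucose carrier Slc2a1 (GLUT1) held 99.8% and 5.88% of its pair with the hepatocyte carrier Slc2a2.

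Amino acid and lipid enzymes gave further switches. Mat2a, the general methionine adenosyltransferase (11.3% exon overlap), held 99.9% ± 0.0242 in stellate cells and 6.63% ± 0.81 in liver of its pair with Mat1a, and Soat1, a cholesterol esterifying enzyme, 99.8% and 1.13% of its pair with Soat2. The connexin Gja1 held 99.97% in stellate cells and 0.197% in liver against Gjb1, the connexin of hepatocyte gap junctions. N-cadherin, Cdh2, already held 66.2, 69.4 and 65.7% in liver, so its pair with Cdh1 changed without a switch.

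Pairs with few transcripts in stellate cells were less even. Arg2, the mitochondrial arginase (28.1% exon overlap), ranged over 75.7, 38.4, 91.2 and 72.2% of the arginase pair in the 4 stellate libraries, where both genes were low (Arg1 at 0.218 TPM). Aldh1a2, a retinoic acid-forming enzyme, was the pair whose groups overlapped: it held at most 0.0598% of the pair in any library, and Aldh1a1 was high in both groups (530.3 against 574 TPM).

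**Figure D3:**
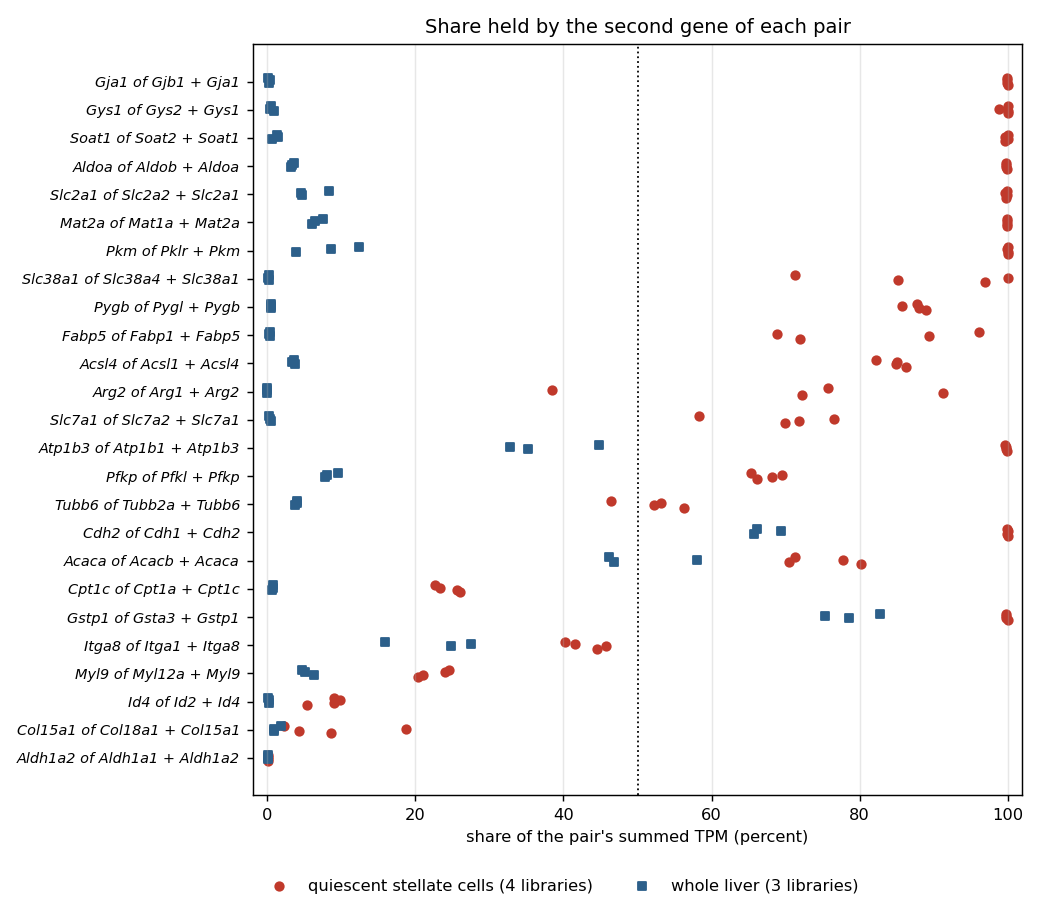
Share of the summed TPM of each pair reported here held by the gene named first (percent), with 1 point per library, 4 stellate (circles) and 3 liver (squares), and a dotted line at 50%. In each pair shown except that of Aldh1a2, which is near 0 in all 7 libraries, the stellate points lie right of the liver points.

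Hepatocyte functions were low in the sorted cells, but by very different factors. Of 111 genes of 7 hepatocyte lists with at least 50 TPM in liver, the median level in stellate cells was 0.0624% of the liver level. For 66 genes it was under 0.1%, for 14 it was 0.1 to 1%, for 10 it was 1 to 10%, and for 21 it was 10% or more. Urea cycle genes spanned this range: Cps1, its first enzyme, stood at 0.0115% of liver and Arg1 at 0.0217%, while Asl stood at 9.88% and Ass1 at 3.29%. Ass1 was 40.5, 46.02, 44.5 and 63.9 TPM in the stellate libraries and 979.6, 1729 and 1742 TPM in liver. Oat and Glul, which make and use glutamate-family amino acids in pericentral hepatocytes, were 405 against 338 TPM and 176 against 264 TPM and not called on TPM, though both were called lower after rescaling (−1.74 and −2.61).

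Of 21 tested genes of gluconeogenesis and glycogen, 6 rose and 11 fell, beside 25.7% and 10.9% of all genes. The rises were near the share of all genes. The gluconeogenic enzyme genes Pck1 and Fbp1 stood at 584, 1037 and 769 and 212, 330.0 and 310.3 TPM in liver and at means of 0.155 and 0.0335 TPM in stellate cells. Ugp2, which makes UDP-glucose, was closer, at 62.9, 59.5, 66.1 and 62.1 TPM in stellate cells and 90.8, 142 and 141 TPM in liver (log2 −0.95 on TPM and −2.95 rescaled), so its groups did not overlap but it was not called on TPM.

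All 17 tested bile acid genes fell, for example the uptake carrier Slc10a1 from 206, 311 and 352 TPM in liver to 0.225, 0.0707, 0.0937 and 0 TPM. Cyp27a1, a mitochondrial sterol hydroxylase not limited to hepatocytes, kept 38.6% of its liver level. Of 33 tested cytochrome P450 genes and their reductase, 25 fell and 3 rose, beside 10.9% and 25.7% of all genes. Cyp2e1, an ethanol-oxidising enzyme, fell from 3284 to 2.3 TPM. Cyp3a11, a drug-oxidising enzyme gene with close copies beside it, stood at 0.427, 0.283, 0.161 and 0.0487 TPM in stellate cells and 1522, 3071 and 2536 TPM in liver. Those that rose were Cyp20a1, an orphan member, at 223, 193, 206 and 197 TPM in stellate cells and 2.48, 4.16 and 3.18 TPM in liver, Cyp4b1 (51.7 against 4.19 TPM) and Cyp26b1, which degrades retinoic acid (13.8, 25.7, 7.61 and 4.91 TPM in the stellate libraries). Cyp20a1 varied little among the stellate libraries, whereas Cyp26b1 and Cyp4b1 were highest in stellate library 2.

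Apolipoprotein genes did not move as 1 block. Apoe, which directs remnant uptake and is made by many cell types, stood at 9088, 9095, 9884 and 8020.5 TPM in stellate cells and 16274, 24246 and 21934 TPM in liver, or 43.3% of liver. It was lower on both scales (log2 −1.19 on TPM and −3.21 rescaled) but higher by 0.44 after quantile normalisation, so its direction depends on the scaling. Its neighbour Apoc1 stood at 320.1, 332, 278 and 279 TPM in stellate cells and 13396, 17266 and 17901 TPM in liver, or 1.87%. Apoa2 and Apoc3 stood at 0.0146% and 0.0111% of liver, near the 0.028% of Alb, the hepatocyte albumin gene. Alb ranged over 4.52 to 11.2 TPM in the stellate libraries. Apoc1 and Apoe lay far above Alb in percent of liver, and the source of their transcripts in the stellate libraries was not tested. Trf (transferrin) was another hepatocyte marker on that side, at 469, 397, 516 and 398 TPM and 4.75% of liver, with 63.5% exon overlap.

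Upstream sequence is shown for 5 genes on opposite sides of the comparison whose levels the text gives, to set the letters beside the levels. Each is the 250 bases before the RefSeq transcript start in GRCm38.p6, 5′ to 3′ on the gene's strand, with the named motif or its reverse complement in capitals. The motifs searched on both strands were GGGCGG (GC box), GTTAATNAT (part of the HNF1 site), CAAAGTCCA (an HNF4-type site), TGACGTCA (the cyclic AMP response element, CRE), TGACTCA (AP-1) and TATAAA, none of which contains another. Only the motif named for a gene is marked. The Cyp3a11 sequence also holds a GC box and TATAAA, and the Dusp1 sequence also holds GC boxes, so the GC box is not limited to the stellate side.
Lrat, minus strand, chr3:82903975-82904224, GC box in capitals: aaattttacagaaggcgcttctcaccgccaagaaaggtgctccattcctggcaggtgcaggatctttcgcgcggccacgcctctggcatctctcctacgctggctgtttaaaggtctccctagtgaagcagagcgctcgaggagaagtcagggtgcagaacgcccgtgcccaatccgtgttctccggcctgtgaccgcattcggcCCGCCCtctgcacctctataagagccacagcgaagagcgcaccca
Fga, plus strand, chr3:83025903-83026152, HNF1-type site in capitals: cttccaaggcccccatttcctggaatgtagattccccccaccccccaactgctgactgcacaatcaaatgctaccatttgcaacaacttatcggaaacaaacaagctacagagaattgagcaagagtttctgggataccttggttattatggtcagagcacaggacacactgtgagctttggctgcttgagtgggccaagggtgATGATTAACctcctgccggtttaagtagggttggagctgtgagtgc
Alb, plus strand, chr5:90460620-90460869, HNF1-type site in capitals: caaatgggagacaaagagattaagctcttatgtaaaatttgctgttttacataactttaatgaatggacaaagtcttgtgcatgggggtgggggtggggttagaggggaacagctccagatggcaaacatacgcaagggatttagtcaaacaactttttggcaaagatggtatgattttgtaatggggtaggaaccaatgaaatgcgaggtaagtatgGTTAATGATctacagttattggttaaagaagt
Cyp3a11, minus strand, chr5:145879855-145880104, HNF4-type site in capitals: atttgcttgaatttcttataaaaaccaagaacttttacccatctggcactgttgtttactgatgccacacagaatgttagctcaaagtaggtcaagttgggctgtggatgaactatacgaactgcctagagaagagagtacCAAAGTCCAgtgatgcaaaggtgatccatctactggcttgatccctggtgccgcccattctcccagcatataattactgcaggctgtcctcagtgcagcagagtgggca
Dusp1, minus strand, chr17:26508473-26508722, CRE in capitals: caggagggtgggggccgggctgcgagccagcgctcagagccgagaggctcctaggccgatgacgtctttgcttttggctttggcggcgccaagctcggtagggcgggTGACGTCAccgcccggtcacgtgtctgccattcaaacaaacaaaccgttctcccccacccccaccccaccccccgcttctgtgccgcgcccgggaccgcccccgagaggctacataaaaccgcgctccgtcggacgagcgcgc

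Motif shares were counted per gene in windows of 300 bases, from 250 before to 50 after the start, over genes with at least 1 window. The HNF1-type site was present for 38 of 1000 genes that fell (3.8%), 10 of 2400 that rose (0.417%) and 0.94% of all 27025 genes. The HNF4-type site was present for 2%, 0.333% and 0.555% in the same order. The GC box ran the other way, at 490 of the genes that fell (49%), 72% of those that rose, 68.2% of tested genes and 38.2% of all genes. The CRE was present for 3 of 24 immediate-early genes with a window, Dusp1 among them, and for 2.03% of all genes. AP-1 sites (5.42% and 7% of genes that rose and fell) and TATAAA (9.5% and 16.5%) were more frequent among genes that fell, beside 5.95% and 15.7% of all genes. Genes that rose or fell are part of the tested genes, whose shares differed from those of all genes. Among tested genes the HNF1-type site was present for 0.705%, the HNF4-type site for 0.56% and the CRE for 3.55%. AP-1 sites were present for 4.51% of tested genes and TATAAA for 9.0%. These shares are descriptions, and a match is not a bound site.

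The stretch of chromosome 3 that holds Lrat had neighbours on both sides of the comparison. Lrat (82892579 to 82903973, minus strand, GRCm38) stood at 996, 1211, 848 and 1300.3 TPM in stellate cells and 0.619, 1.36 and 1.18 TPM in liver. Rbm46 (82837228 to 82876483, minus strand), an RNA-binding protein gene best known from germ cells and named here after its values were seen, stood at 241, 229, 215 and 177 TPM and 0, 0.0487 and 0.0255 TPM. It lies downstream of Lrat on the same strand, and from TPM its own transcripts and transcripts running on from a neighbour cannot be told apart. On the other side of Lrat lie the fibrinogen genes Fgg (83007724 to 83015049), Fga (83026076 to 83033627) and Fgb (83040141 to 83049863), secreted by hepatocytes as clotting protein. They stood at 0.509, 0.451 and 0.225 TPM in stellate cells and 1633, 1482 and 906 TPM in liver. Plrg1 (83055522 to 83072355), a splicing gene next to Fgb, was closer, at 36.1, 37.7, 37.3 and 32.5 TPM in stellate cells and 9.4, 10.9 and 10.4 TPM in liver, and was called higher on TPM (log2 1.72) but not after rescaling (−0.20). The groups did not overlap on TPM for any of the 6 genes. On that scale 67.0% of all tested genes were called higher and 10.9% lower, so groups that lie apart are not particular to this stretch.

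Retinoid genes lay on both sides. Bco1, which cleaves beta-carotene to retinal, rose, at 225, 235, 194 and 221 TPM in stellate cells and 1.63, 1.36 and 1.39 TPM in liver. The plasma retinol carrier gene Rbp4 fell to 0.0159% and that of its partner Ttr to 0.00964% of liver. Stra6l, a receptor for the plasma carrier, fell from 37.6 to 0.0834 TPM, and Cyp26a1, a retinoic acid hydroxylase, from 8.1 to 0.0318 TPM, the opposite of Cyp26b1. Of 24 tested members 8 rose and 7 fell on both scales, beside 25.7% and 10.9% of all genes.

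Lipid droplet genes did not rise as a list although the cells store lipid. Of 26 tested members, 4 rose and 9 fell on both scales, beside 25.7% and 10.9% of all genes. The median log2 fold change was 0.37 on TPM and −1.48 after rescaling. Plin2, the common droplet coat protein, stood at 231, 244, 257 and 204 TPM in stellate cells and 173, 221 and 156 TPM in liver, so its groups were close on TPM (log2 0.36) and it was called lower after rescaling (−1.65). Rises on both scales included G0s2, an inhibitor of triglyceride lipase (555 ± 55.5 against 63.7 ± 22.7 TPM), Lpl, lipoprotein lipase (110.4 ± 18.3 against 5.42 ± 0.184 TPM), and Hilpda, a hypoxia-linked droplet protein (47.2 ± 5.62 against 1.7 ± 0.256 TPM). The liver fatty acid-binding gene Fabp1, at 11500.1 TPM in liver, was at 0.243, 3.42, 0.604 and 1.38 TPM in the stellate libraries.

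Complement and clotting genes lay on both sides. Of 46 tested members, 9 rose and 27 fell, beside 25.7% and 10.9% of all genes. Rises were thus less frequent than among all genes. Colec10 and Colec11, soluble lectins that start the lectin pathway, stood at 1961, 1885, 1726 and 1963 and 4936, 4731, 4861 and 5323 TPM in stellate cells. In liver they stood at 0.714, 2.31 and 2.23 and 4.83, 14.3 and 12.5 TPM. Masp1, the protease that these lectins activate, stood at 2718, 2693, 2311 and 2900.1 TPM against 18.2, 26.98 and 23.1 TPM (log2 4.83, SE 0.09, limma adjusted p = 8.80e-11), so lectins and protease were high in the same libraries. Fcna, ficolin A, another starter of the pathway and also on the Kupffer cell list, stood at 4485, 4345, 5172 and 4193 and 6.2, 13.5 and 9.02 TPM.

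The central component C3 fell from 876, 1038 and 1142 TPM in liver to 5.33, 2.5, 6.69 and 12.05 TPM in stellate cells. The early protease gene C1ra was called higher in stellate cells on TPM alone, at 601 against 94.2 TPM, with a rescaled log2 value of 0.65. Serping1, the inhibitor of C1 proteases, was 2323 against 322 TPM and 0.82 after rescaling.

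For genes of basic cell function the counts depended strongly on the scale, so the 2 scales are given side by side. Of 82 tested ribosomal protein genes, 58 were called higher and 2 lower on TPM (median log2 1.32), and 0 higher and 25 lower after rescaling (median −0.70). Of 39 splicing factor genes (Hnrnp, Srsf and Sf3 families), 38 were higher and none lower on TPM, and 5 higher and 1 lower after rescaling, with medians of 2.21 and 0.24. Of 39 proteasome genes, 11 were higher on TPM and 27 lower after rescaling, with medians of 0.77 and −1.21. The median of all genes moved by −1.65 with the same rescaling. Of all tested genes, 67.0% were called higher and 10.9% lower on TPM, and 25.7% and 27.4% after rescaling. The ribosomal protein calls higher on TPM and lower after rescaling were near those shares.

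Respiratory chain genes lay below that median on both scales. Of 92 tested nuclear genes of oxidative phosphorylation, 21 were lower and 7 higher on TPM, and 85 lower and 3 higher after rescaling, with medians of −0.69 and −2.68. The 13 genes of the mitochondrial genome all fell on both scales, with medians of −1.95 and −3.97. Their member mt-Nd3, a subunit of complex I, fell most, from 5146, 3289 and 6395 TPM in liver to 134, 276, 518 and 329 TPM in stellate cells.

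**Figure D4:**
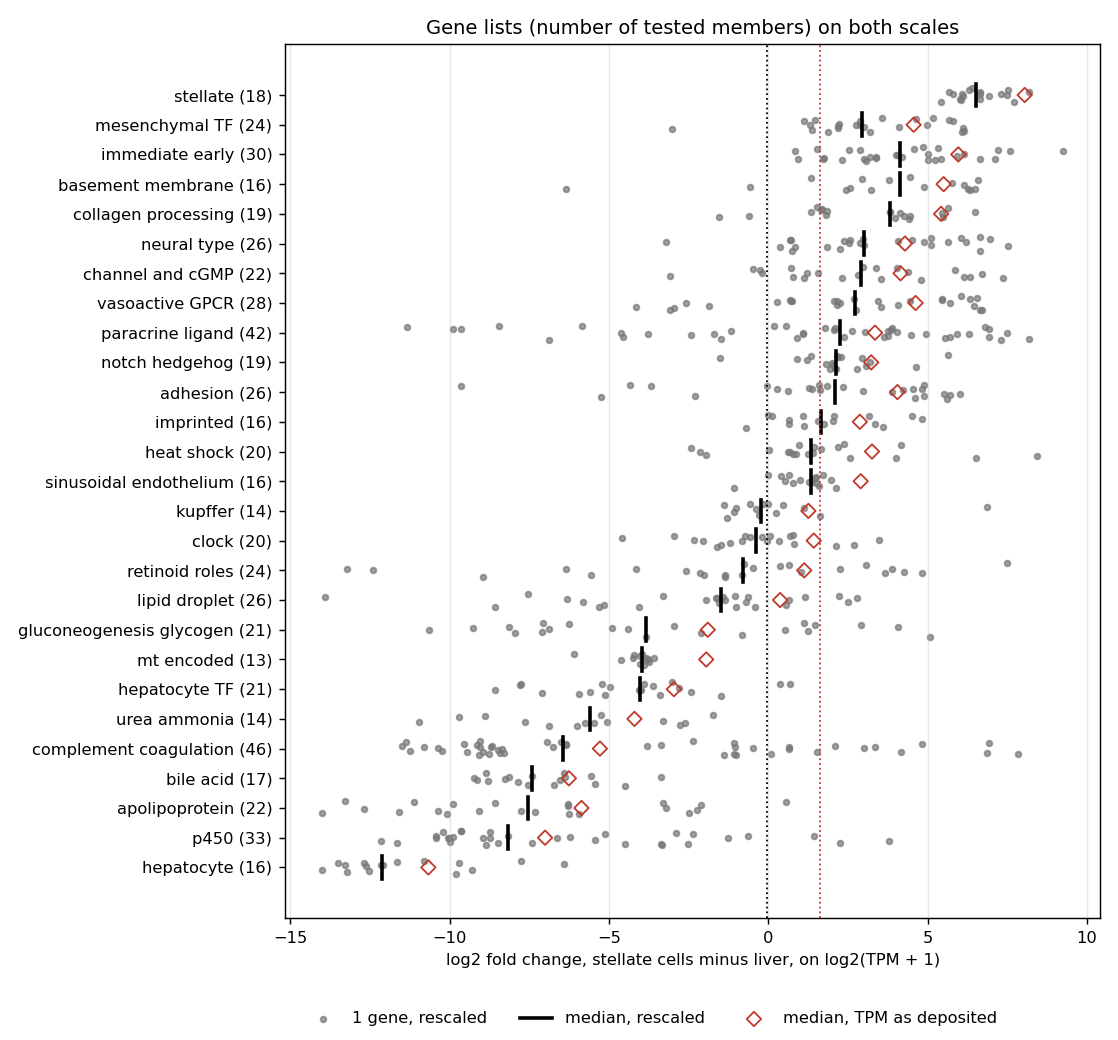
Log2 fold change of stellate cells over liver for the tested members of 27 lists after rescaling (grey points), with the list median after rescaling (black bar) and on TPM (red diamond). Dotted lines mark the medians of all genes, −0.03 and 1.62. The stellate and mesenchymal medians lie right of the line of their scale and the hepatocyte medians left of it, while the Kupffer cell, clock and retinoid medians lie left of it by less than 1.

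Early-response transcripts filled a large part of the stellate libraries. The 30 immediate-early genes together took 3.18, 3.88, 3.56 and 3.54% of stellate TPM and 0.0523, 0.0766 and 0.0782% of liver TPM. All 30 were higher on TPM and 28 rose on both scales. Jun, an AP-1 subunit, stood at 3163, 3515, 3115 and 3269.8 TPM in stellate cells and 33.7, 59.8 and 58.5 TPM in liver, and the MAP kinase phosphatase Dusp1 at 2161 against 65.7 TPM. Klf4, a zinc finger factor also induced early, stood at 572 against 0.283 TPM. Perfusion, digestion, gradient and sort were applied to the stellate cells and not described for liver, so the isolation and the cell type cannot be told apart for these genes.

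Heat shock genes varied among the stellate libraries. The list of 20 took 1.76, 0.882, 1.19 and 1.07% of stellate TPM and 0.118, 0.141 and 0.128% of liver TPM. Hspa1b, an inducible HSP70, stood at 3760.1, 483, 1356 and 1306 TPM in the stellate libraries and 2.78, 3.56 and 3.11 TPM in liver, and Hspa8, the constitutive form, at 3245, 2399.8, 2889 and 2503 and 346, 390.3 and 362 TPM. Stellate library 1 was the highest and library 2 the lowest for both, with a spread of several fold for Hspa1b and less than 1.5-fold for Hspa8. Mitochondrial chaperones did not follow, with Hspd1 at 105 against 117 TPM. Outside the stress genes, of 20 clock genes 3 rose and 2 fell, beside 25.7% and 10.9% of all genes. Csnk1e, a kinase that acts on PER proteins, stood at 166, 161, 131 and 139 TPM in stellate cells and 2.37, 3.09 and 3.2 TPM in liver, the largest rise of that list (log2 3.48).

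Markers of other cells were read as sums over whole lists. The 18 stellate markers summed to 61967 to 68812 TPM in stellate cells and 77.8 to 184 TPM in liver, and all 18 rose, which fits the label but includes Lrat, on which the sort rested. The 16 hepatocyte markers summed to 414 to 535 TPM in stellate cells, of which Trf held most, and to 72785 to 103852 TPM in liver. The 16 sinusoidal endothelial markers summed to 512, 1071, 651 and 384 TPM in the stellate libraries and 50.2 to 117 TPM in liver, and 9 rose on both scales. Stellate library 2 was the highest and library 4 the lowest, and single markers kept that order: Stab2, a scavenger receptor, stood at 25.5, 56.05, 30.5 and 16.3 TPM and Kdr, the VEGF receptor, at 25.2, 68.3, 28.04 and 19.9 TPM. Plvap, a fenestral diaphragm protein of endothelium, did not, at 6194, 6650.3, 6175 and 6935 TPM in stellate cells and 6.16, 13.5 and 11.3 TPM in liver. Kdr and Flt4 also stand among the receptors that rose above, and the part of endothelial transcripts in those values was not tested.

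Of 14 Kupffer cell markers, 3 rose and none fell on both scales, beside 25.7% and 10.9% of all genes. Those that rose were Fcna, the iron exporter gene Slc40a1 (173 against 20.1 TPM) and the lysosomal macrophage marker Cd68 (35.3 against 2.42 TPM). Clec4f, the lectin that defines Kupffer cells, stood at 41.8, 19.6, 30.4 and 39.9 TPM in stellate cells and 15.5, 27.9 and 17.7 TPM in liver, groups that overlapped, with a log2 value of 0.65 on TPM and −1.29 rescaled. Fcna was far above Clec4f in every stellate library and below it in every liver library. The neutrophil, NK cell, T cell and B cell lists summed to at most 5.07 TPM in any stellate library and 9.46 TPM in any liver library. In all 4 stellate libraries 6 of 9 neutrophil and 5 of 9 NK cell markers were listed at 0. The T cell list was not lower in stellate cells, at 3.37 to 5.07 TPM against 2.39 to 3.58 TPM in liver. Erythroid markers summed to 0.166 to 12.6 TPM in stellate cells, highest in library 2, and 463 to 621 TPM in liver. Cholangiocyte and mesothelial lists summed to at most 3.43 and 1.93 TPM in stellate cells.

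Other contractile or fibroblast types share genes with stellate cells. Of 6 tested vascular smooth muscle markers 5 rose on both scales, but Acta2, the alpha smooth muscle actin that activated stellate cells and smooth muscle share, was 6.11, 11.4, 22.1 and 8.22 TPM in the stellate libraries, against 259, 239, 181 and 231 TPM for the kinase gene Mylk, and Myh11, which defines smooth muscle, was 11.7, 8.21, 8.88 and 11.7 TPM. The 11 portal fibroblast markers summed to 44.5 to 63.6 TPM, with 1 of 5 tested, the elastin gene Eln (27.7 against 0.631 TPM), rising on both scales, beside 25.7% of all genes. The part of these cells in the values was not tested.

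Some genes listed as markers of blood cells were high in stellate cells although other markers of the same lists were under the minimum. Plac8, listed as a monocyte marker, stood at 849, 795, 778 and 927 TPM in stellate cells and 4.47, 4.93 and 5.91 TPM in liver. On its list 9 of the 11 markers were under the minimum, and 1 of the 2 tested rose. Irf8 and Tcf4, transcription factors of plasmacytoid dendritic cells, rose, at 72.7 against 1.21 and 84.4 against 1.53 TPM. On that list 4 of the 8 markers were under the minimum, and 3 of the 4 tested rose. Itga2b, the platelet integrin alpha IIb, stood at 87.8, 69.5, 59.3 and 66.3 TPM in stellate cells and 2.36, 1.82 and 2.08 TPM in liver. Of 6 platelet markers 4 were under the minimum, and the 2 tested rose. Plac8, Irf8, Tcf4 and Itga2b differed by less than 2-fold among the stellate libraries, and the order seen for the endothelial markers held for none of the 4 in full. The part of blood cells in these values was not tested.

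**Figure D5:**
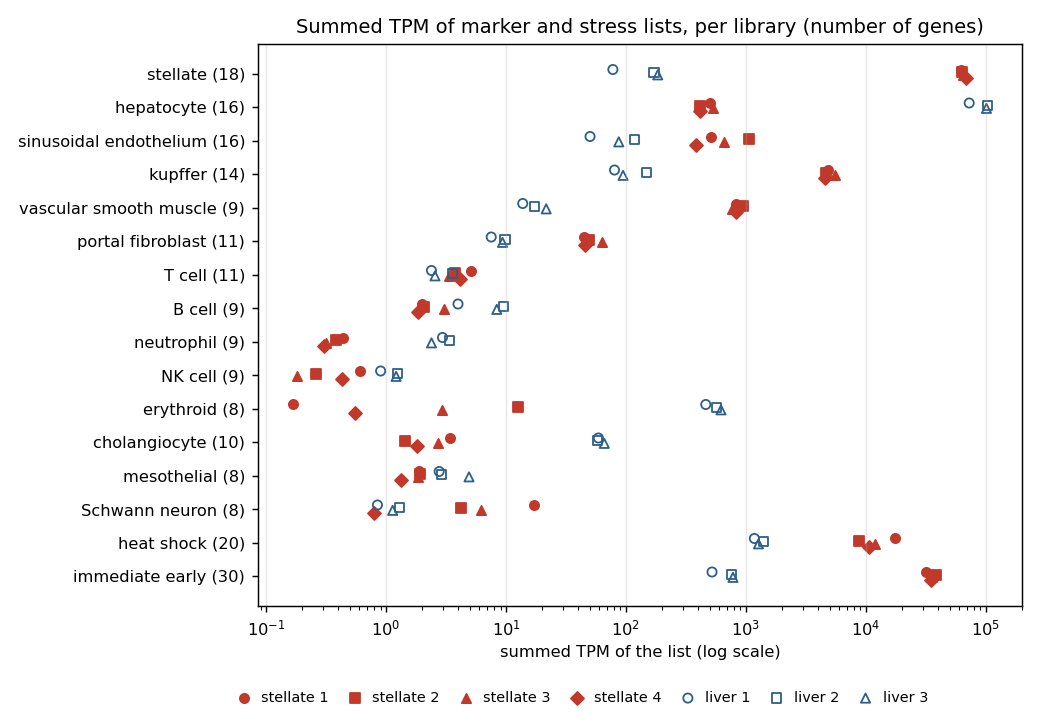
Summed TPM (log axis) of 16 marker and stress lists in each of the 7 libraries, stellate filled and liver open, with the number of genes in brackets. Stellate library 2 (filled squares) is highest for endothelial and erythroid lists, and stellate library 1 (filled circles) for heat shock genes, while the stellate and immediate-early sums of the 4 libraries lie close together.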

How the data were processed

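Bulk RNA-seq of 4 libraries of unplated, sorted stellate cells and 3 of whole liver was compared. The deposited values are TPM per gene, which the authors computed with kallisto 0.44.0 per the submitters' processing notes, on builds GRCm38 and mm10. For strand use, the sources used here state nothing. TPM keeps no depth, so the depth is not known and count models were not used. The labels' protocols name column-purified RNA and a TruSeq kit. Of 35197 rows, 26 with dates in place of symbols (at most 0.319% of TPM) were left out, and 12643 of 35171 had a mean of at least 1 TPM. Of the 35171 symbols 34805 were found in GENCODE vM21 (GRCm38), used for positions and exon overlap (bedtools 2.31.1). A named gene whose exons overlap another gene over more than 10% of their bases is given with that share.

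Tests used log2(TPM + 1) and limma 3.58.1 (R 4.3.3) with a mean-variance trend, two-sided. A call needed a Benjamini-Hochberg adjusted p under 0.05 over all tested genes and a log2 fold change of 1 or more in either direction, before and after median-of-ratios rescaling. The fit was tested on simulated data. Pair shares and class shares used exact permutation tests, with the smaller tail doubled for a two-sided p (scipy 1.17.1, Python 3.11.15). Motifs were searched in RefSeq windows of GRCm38.p6. Alternatives were quantile normalisation, TPM without the dominant classes, a pseudocount of 0.1, a minimum of 5 TPM or none, no trend, and leaving out each library.

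The members and lists were chosen with earlier results of these data known. Named genes are, per list, up to 6 called higher, 6 called lower and 3 not called with the highest TPM, the 15 most abundant genes of each group, the 10 largest rises and falls, and pair members. Foxa2, Foxa3, Gata4, Gfap, mt-Nd3, Nr1i2, Nr2f2, Olfr1033, Plrg1 and Rbm46 fall outside that rule and were chosen after their values were seen. Some genes that the rule took, and 2 isozyme pairs, are not reported here. List symbols that the table did not hold were not used here.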

Additional observations from a re-analysis of the deposited data

Results flagged for a closer look

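In a group of 4, a library whose gap to its nearest neighbour takes nearly the whole range stands apart, and chance gives this in about 1 in 20 groups. Of 233 values examined in the stellate libraries 17 stood apart, of which 2 were in library 1, 4 in library 2, 8 in library 3 and 3 in library 4. The cause was not tested for any of them.

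Stellate library 3 was low for the summed potassium channel and cyclic GMP list (2920 TPM against 3357 to 3442 in the other 3) and for Hgf (866 TPM against 1226 to 1296). It was also low for Hk1 (49.4 TPM against 58.9 to 59.5), Ntn1 (461 TPM against 551 to 560.0), Tgfbi (3749 TPM against 4627 to 4679) and Vegfa (12.5 TPM against 19.1 to 20.1). In the same library Bambi was high, at 77.0 TPM against 64.3 to 65.3 TPM.

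Kdr stood apart in stellate library 2, at 68.3 TPM against 19.9 to 28.0 TPM, the library that also held the highest sum of endothelial markers. Slc2a1 was high in library 4, at 43.9 TPM against 32.7 to 34.1 TPM, and the mesothelial list was low there, with a sum of 1.33 TPM against 1.85 to 1.93 TPM. Selenbp2, a selenium-binding protein gene of hepatocytes, was high in library 4 too, at 17.2 TPM against 0.168 to 0.413 TPM.

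The other values that stood apart were traces of liver genes in single stellate libraries, all under 1 TPM. Library 1 held 0.772 TPM of Hamp, listed at 0 in the other 3, and 0.181 TPM of Met against at most 0.0236 TPM. Library 2 held 0.134 TPM of Fbp1, 0.0706 TPM of Gys2 and 0.0336 TPM of Pklr, each listed at 0 in the other 3. Library 3 held 0.187 TPM of Cdh1 against at most 0.0306 TPM.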

How the results depend on the processing

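Depth is unknown, so no limit of detection can be given for a gene listed at 0. The counts of called genes depended on the scaling: against 8466 higher and 1381 lower on TPM, median-of-ratios rescaling gave 3250 and 3465 and quantile normalisation 3547 and 2943. The other alternatives stayed within 1.5 times: 5885 and 2004 on TPM without the dominant classes, 8840 and 1445 with a pseudocount of 0.1, 6940 and 1041 with at least 5 TPM, and 8634 and 1473 with no filter. Leaving out 1 library in turn gave 8264 to 8666 higher and 1308 to 1420 lower on TPM, and 3192 to 3295 and 3434 to 3517 after rescaling. Rescaling with a pseudocount of 0.1, chosen after seeing the data, gave 3685 in each direction.

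Of 183 named genes 174 kept their direction under each alternative run, and those that changed sign did so with the scaling. After median-of-ratios rescaling, quantile normalisation and removal of the dominant classes, in that order, the log2 values were −1.29, −0.91 and −0.29 for Clec4f, −1.47, −0.84 and −0.45 for Nr2f6, −1.74, −0.53 and −0.69 for Oat, −1.56, −0.30 and −0.51 for P4hb, and −1.65, −0.50 and −0.61 for Plin2. Plrg1 turned to −0.20 under the first of these. Csf1r turned to −0.0019 and −0.0558 under the first 2 of these. Under quantile normalisation Acvrl1 turned to −0.0578 and Apoe to 0.44. The labels give no replicate number that both groups share. No paired analysis was possible because the groups share no replicate numbers.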

Other observations

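Ddx3y, a Y-linked RNA helicase gene, was found in all 7 libraries, at 49.05, 52.6, 41.3 and 50.5 TPM in stellate cells and 6.34, 10.6 and 10.2 TPM in liver. Of 13 tested genes known to be higher in male than in female liver, 12 fell, for example the selenium-binding protein gene Selenbp2, at 0.329, 0.413, 0.168 and 17.2 TPM in the stellate libraries and 1243, 803 and 1135 TPM in liver. Stellate library 4 was the highest of the 4.

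Genes of antigen presentation by MHC class I were abundant in both groups. Of 22 tested, 11 rose and 3 fell on both scales, beside 25.7% and 10.9% of all genes. B2m, the shared light chain, was not among those that rose. It stood at 9765, 10674, 12389 and 12210.5 TPM in stellate cells and 2054, 2394 and 2508 TPM in liver. It was called higher on TPM (log2 2.28) but not after rescaling (0.26).

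A gene named as an olfactory receptor, Olfr1033, was among the more abundant transcripts of the stellate libraries, at 5311, 4362, 3749 and 5604 TPM, against 397, 496 and 416 TPM in liver. Its exons overlap no other gene of the annotation, but from TPM its own transcripts and transcripts running on from a neighbour cannot be told apart. Rspo3, a Wnt-enhancing ligand also listed as a marker of vein endothelium, stood at 287, 331, 303 and 287 TPM in stellate cells and 0.461, 0.934 and 1.04 TPM in liver (13.1% exon overlap). It was even across the stellate libraries, unlike the sinusoidal endothelial markers.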
